A study of Mus musculus with 24 samples.

Results

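The H3K4me3 regions described here are those of the Smyd3 knockout liver list that no region of the wild-type liver list touches. The rule was an overlap of 0 bp. It picked 4127 of the 17491 regions in the knockout list (23.6%), and 13364 overlapped a wild-type region by at least 1 bp. The wild-type list held 15579 regions, of which 2123 (13.6%) were absent from the knockout list. A gene was assigned to a region when its annotated start lay inside it or within 1000 bp, which gave 810 genes at 736 of the 4127 regions. All region and gene positions are on the mouse build mm9.

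The chromatin came from livers of DEN-treated mice of the mixed background labelled C57BL6/CBA, aged 8.5 months, wild type or Smyd3 knockout, with 2 replicates of each. DEN is diethylnitrosamine, a liver carcinogen, injected once into the peritoneum at 25 mg/kg. RNA was sequenced at the same age from 4 groups of 3 livers. They are called WT and KO where the mice were untreated, and DEN_WT and DEN_KO where they had received DEN. Smyd3 itself was precipitated in DEN-treated wild-type liver only. The knockout allele is a gene trap in the fifth intron of Smyd3 that all tissues carry, so exons before the cassette can still be transcribed. Smyd3 RNA, as a normalized read count over the whole gene, was 79, 89 and 59 in the WT livers against 29, 17 and 22 in KO. After DEN it was 57, 71 and 74 in wild type against 12, 3 and 8 in knockout. Knockout and wild type did not overlap, with or without DEN. Per-group results rest on 1 deposited region list for each genotype, so the regions have no replicate check, and no test between the lists was possible. Every region carries a score of 0, so its width is the only graded quantity that the lists give.

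Trimethylation of histone H3 at lysine 4 is the chromatin mark of active and poised gene starts. It is laid down by methyltransferases of the SET family, and it usually covers a few nucleosomes around the start, spreading wider at genes that define a cell type. Smyd3 is a lysine methyltransferase with SET and MYND domains that has been reported to bind gene starts and to act on histone and cytoplasmic substrates. In liver, hepatocytes give most of the chromatin, with smaller shares from Kupffer cells (the resident macrophages), stellate cells (which store retinoids) and endothelium. In bulk tissue, fewer cells of a type and less signal per cell cannot be told apart.

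Upstream sequences of 10 genes at knockout-only regions are printed to show what kinds of gene starts the set holds. They are the 250 bases before the annotated start from RefSeq, build GRCm38.p6, which differs from the build of the region lists, so genes are linked by name only. Capitals mark each CG dinucleotide, the pair that is frequent at starts with a CpG island. Fitm1 (chr14:55575424-55575673, plus strand) and Acot1 (chr12:84009252-84009501, plus strand) are the entries with the largest increases of RNA in DEN_KO over DEN_WT, and Dnahc1 (listed there as Dnah1, chr14:31323897-31324146, minus strand) and Runx2 (chr17:44814628-44814877, minus strand) those with the largest decreases. Zfp640 (chr13:66680804-66681053, minus strand) and Gm17353 (chr13:65896933-65897182, plus strand) have the widest regions at a start. Cyp1a2 (chr9:57683656-57683905, minus strand), Mup15 (chr4:61439705-61439954, minus strand), Hand2 (chr8:57320733-57320982, plus strand) and Clec4f (chr6:83656117-83656366, minus strand) were added after their values were seen, for a drug-metabolizing enzyme, a urinary protein, a stellate cell factor and a Kupffer cell lectin.
Fitm1: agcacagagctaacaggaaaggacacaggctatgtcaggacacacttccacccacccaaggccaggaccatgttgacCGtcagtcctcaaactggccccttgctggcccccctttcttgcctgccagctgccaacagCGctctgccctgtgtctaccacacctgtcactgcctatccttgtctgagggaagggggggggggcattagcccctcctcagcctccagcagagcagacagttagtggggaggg
Acot1: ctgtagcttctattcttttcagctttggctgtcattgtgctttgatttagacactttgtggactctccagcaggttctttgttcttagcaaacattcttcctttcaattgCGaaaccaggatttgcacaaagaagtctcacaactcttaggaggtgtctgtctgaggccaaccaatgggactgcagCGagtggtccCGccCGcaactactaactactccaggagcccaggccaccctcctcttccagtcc
Cyp1a2: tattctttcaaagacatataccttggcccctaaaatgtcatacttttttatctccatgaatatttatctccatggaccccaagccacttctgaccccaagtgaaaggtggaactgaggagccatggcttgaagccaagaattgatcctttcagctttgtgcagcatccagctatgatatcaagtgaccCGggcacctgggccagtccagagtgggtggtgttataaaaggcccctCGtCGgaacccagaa
Mup15: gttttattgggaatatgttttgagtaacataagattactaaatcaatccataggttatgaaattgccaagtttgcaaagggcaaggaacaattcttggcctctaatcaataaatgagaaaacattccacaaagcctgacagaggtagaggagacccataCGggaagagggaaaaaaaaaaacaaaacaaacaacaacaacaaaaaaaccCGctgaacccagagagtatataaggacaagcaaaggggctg
Dnahc1: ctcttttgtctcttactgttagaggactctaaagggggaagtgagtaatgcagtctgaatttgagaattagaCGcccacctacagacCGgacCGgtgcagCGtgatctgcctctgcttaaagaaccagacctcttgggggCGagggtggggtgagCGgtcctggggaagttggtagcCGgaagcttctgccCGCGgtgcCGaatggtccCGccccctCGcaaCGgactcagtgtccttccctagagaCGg
Runx2: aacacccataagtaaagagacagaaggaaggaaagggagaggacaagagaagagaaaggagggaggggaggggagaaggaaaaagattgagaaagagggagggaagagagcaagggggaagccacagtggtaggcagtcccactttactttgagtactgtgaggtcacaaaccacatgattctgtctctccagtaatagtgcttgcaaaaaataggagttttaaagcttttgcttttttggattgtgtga
Hand2: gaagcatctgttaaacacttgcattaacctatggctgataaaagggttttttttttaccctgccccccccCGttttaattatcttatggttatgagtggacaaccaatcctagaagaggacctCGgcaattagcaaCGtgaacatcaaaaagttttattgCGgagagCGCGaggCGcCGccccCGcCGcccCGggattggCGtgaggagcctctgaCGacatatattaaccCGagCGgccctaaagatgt
Clec4f: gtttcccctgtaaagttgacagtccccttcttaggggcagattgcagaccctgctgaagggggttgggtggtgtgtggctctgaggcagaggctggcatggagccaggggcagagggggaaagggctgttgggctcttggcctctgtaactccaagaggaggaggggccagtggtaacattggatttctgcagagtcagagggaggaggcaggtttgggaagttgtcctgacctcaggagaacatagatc
Zfp640: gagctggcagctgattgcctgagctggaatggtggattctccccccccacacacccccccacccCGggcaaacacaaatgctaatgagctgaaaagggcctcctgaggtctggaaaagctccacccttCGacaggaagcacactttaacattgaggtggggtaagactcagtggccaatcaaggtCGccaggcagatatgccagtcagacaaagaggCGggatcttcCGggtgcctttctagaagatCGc
Gm17353: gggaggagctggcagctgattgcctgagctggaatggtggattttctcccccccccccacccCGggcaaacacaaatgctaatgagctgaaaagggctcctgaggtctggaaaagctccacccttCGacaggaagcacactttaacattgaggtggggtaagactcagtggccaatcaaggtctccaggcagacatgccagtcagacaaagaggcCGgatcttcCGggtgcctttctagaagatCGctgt

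The starts differed in base composition. Hand2 and Dnahc1 held 15 and 14 CG pairs in these 250 bases, whereas Clec4f and Runx2 held 0, Mup15 and Fitm1 held 2, and Cyp1a2 held 3. The motif CCCTCC, read on both strands and reported for Smyd3, stood in the 300-base window (50 bases after the start included) of Fitm1, Acot1, Runx2 and Clec4f. Of all 27025 RefSeq windows of that length, 38.4% hold it. The motif TATAAA stood in the window of Cyp1a2 and no other of the 10, against 14.2% of all windows. Sequences were found for 499 of the 810 genes (61.6%). The share found differed between gene sets, being 73.5% at shared regions and 34.6% near no region. No comparison of base composition between gene sets is therefore given.

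Zfp640, a zinc finger gene, and Gm17353, both on chromosome 13, differed by 21 single-base edits over 250 bases and shared an unbroken run of 87 bases. The upstream bases of Mup13 equalled those of Mup15, and those of Mup12 equalled those of Mup14, with 0 edits over 250 bases. Over the 28 pairs of the 8 Mup genes with an entry, the median was 50 edits. Edits include inserted and deleted bases, so a shifted annotated start adds to the count as well as changed bases. Reads from such copies can be placed on the wrong member, so the position of a region and the value of a gene within these families are uncertain. How reads that map to several places were handled is not given in the sources used here.

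Knockout-only regions were narrow. Their median width was 583 bp, with quartiles at 286 and 1204 bp and a range from 188 to 14288 bp. Wild-type-only regions had a median of 437 bp, and the regions of the knockout list that both genotypes shared had a median of 1831 bp. The 4127 regions covered 3.98 Mb of the 32.9 Mb in the knockout list. Of them, 1856 (45.0%) were at most 500 bp wide and 87 (2.11%) were wider than 4000 bp. Shared regions were also wider in the knockout list than in the wild-type list (medians 1831 and 1619 bp), and the knockout list as a whole covered more of the genome (32.9 Mb against 26.9 Mb). Reads per ChIP library were not analysed here, and their part in the number of listed regions was not tested.

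**Figure D1:**
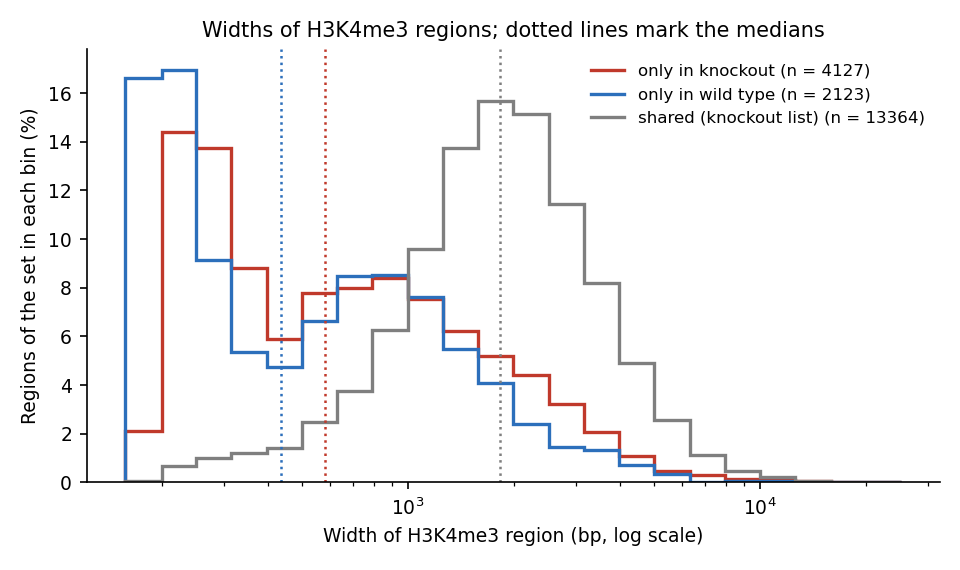
Width of each H3K4me3 region (bp, log scale, x axis) against the share of its set in each bin (%, y axis) for regions listed only in knockout, only in wild type, and shared. Both unshared sets have their highest bin at 200 to 251 bp and a second rise near 1000 bp, and the shared regions have their highest bin at 1585 to 1995 bp.

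Most members lay far from the nearest wild-type region. The median gap was 60028 bp, 27 members (0.654%) lay within 1000 bp of one, and 384 (9.30%) within 5000 bp. The members closest to the boundary of the rule had gaps of 231, 318 and 456 bp. The regions just outside it overlapped a wild-type region by 14, 71 and 131 bp.

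Of the 4127 members, 736 (17.8%) had a gene start within 1000 bp, 1202 (29.1%) lay in a gene body away from a start, and 2189 (53.0%) lay outside genes. In wild-type-only regions the share at starts was 22.2%, and in shared regions it was 77.9%. Members at starts were wider (median 1226 bp) than those in gene bodies (598 bp) and outside genes (408 bp). The share at starts went from 6.95% of members up to 500 bp wide to 62.1% of those over 4000 bp (54 of 87). At every width the shared regions had the higher share, 26.6% up to 500 bp and 84.2% over 4000 bp.

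Smyd3 peaks of wild-type liver overlapped 743 of the 4127 members (exact 95% interval 16.8 to 19.2%, counting error only). They overlapped 23.4% of wild-type-only regions and 74.3% of shared regions. At gene starts, 273 of 736 members (37.1%) carried a Smyd3 peak, against 65.0% of wild-type-only and 83.9% of shared regions. In gene bodies the shares were 12.6%, 13.9% and 50.2%, and outside genes 14.5%, 10.0% and 28.7%. Width differed between the sets, and among regions over 1000 and up to 2000 bp wide the overlap was 24.7% for members, 41.8% for wild-type-only and 77.1% for shared regions. Up to 500 bp, the class of 45.0% of members, it was 12.7%, 10.9% and 25.8%, and over 4000 bp 29.9%, 8.70% (of 23 regions) and 75.1%, so members stood above wild-type-only regions in both of these classes. Regions are not replicates, so these shares are a description with no test.

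**Figure D2:**
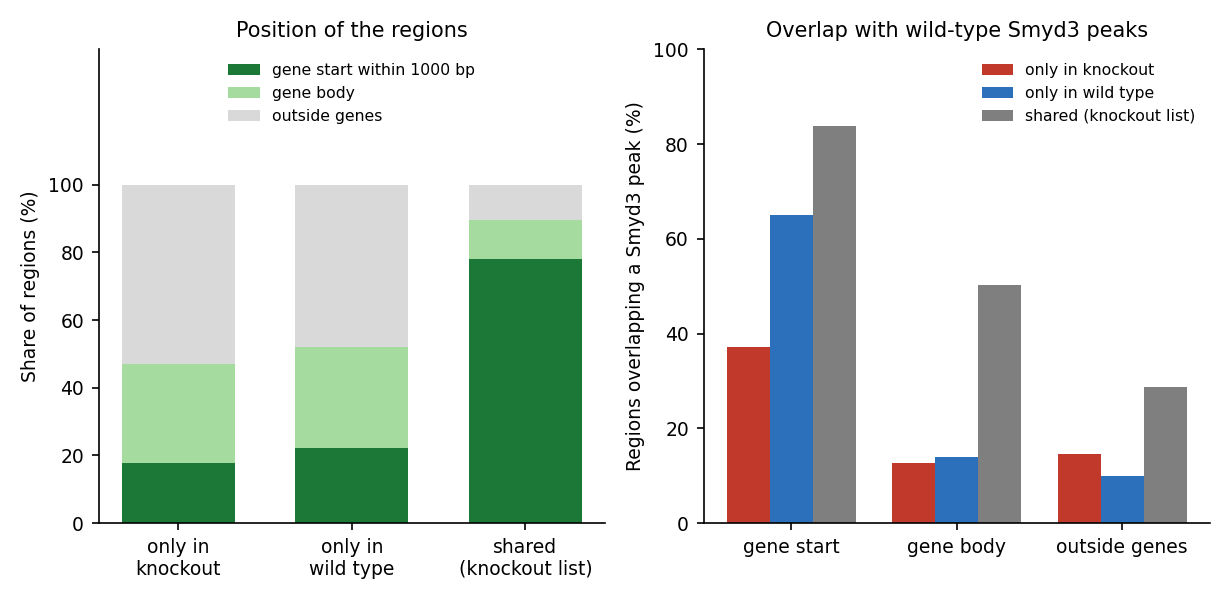
Left, share of regions (%) with a gene start within 1000 bp, in a gene body, or outside genes, for each of the 3 sets. Right, share of regions (%) overlapping a wild-type Smyd3 peak within each class, where the 37.1% of knockout-only regions at gene starts stands below the 65.0% of wild-type-only regions.

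Members were spread unevenly over chromosomes. On chromosome 11, 185 of 1241 regions of the knockout list (14.9%) were knockout-only, the lowest share. The share was 38.7% on X (305 of 788) and 78.4% on Y (40 of 51). Wild-type-only regions showed the same order, with 8.58% of the wild-type list on chromosome 11, 26.2% on X and 52.2% on Y. The single-copy Y genes Ddx3y, Eif2s3y, Kdm5d and Uty all lay near shared regions, and Ddx3y RNA was 697 to 1575 in all 12 RNA libraries, with Xist at 4 to 29. The trapped Smyd3 gene (chr1:180882091-181448172) held 0 members. Within 10 Mb of it, 36 of 161 regions (22.4%) were members, against 28.0% on chromosome 1 as a whole.

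**Figure D3:**
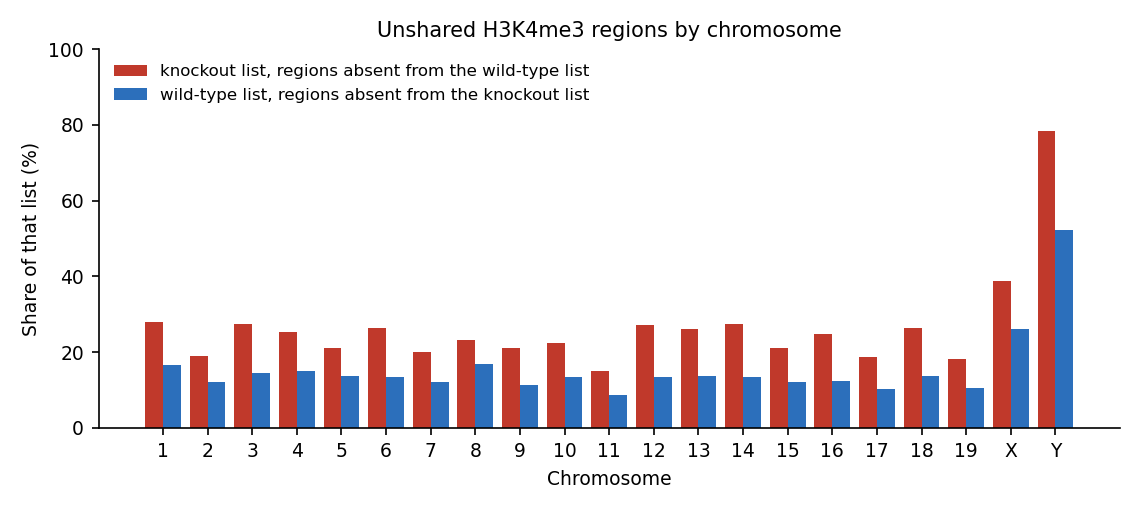
Share of each list (%, y axis) that is absent from the other genotype's list, by chromosome (x axis). Red bars are the knockout list and blue bars the wild-type list, and both are highest on X and Y.

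Dense groups of members stood in 11 windows of 1 Mb with at least 10 members each, which held 204 members (4.94%) with a median width of 1303 bp. The window chr13:66000001-67000000 held 16 knockout regions, all of them members, and 0 wild-type regions. It contains Zfp640 and 2410141K09Rik. The windows chr4:60000001-61000000 and chr4:61000001-62000000 held 17 and 10 members and contain the major urinary protein (Mup) genes. The window chr4:88000001-89000000, with the interferon gene Ifnz, held 13. The windows of chromosome X from 120000001 to 123000000 held 35, 28 and 24, and those of Y from 1000001 to 3000000 held 23 and 12. Unlike the window on chromosome 13, these windows also held wild-type regions. They numbered 6 and 8 in the Mup windows, 16 in the window of Ifnz, 47, 36 and 31 on X, and 7 and 10 on Y. Smyd3 peaks overlapped 6.37% of members in these windows and 18.6% of the others. Without the windows, the share on X was 32.1%.

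The widest members at a gene start were Zfp640 (chr13:66765821-66780108, 14288 bp) and Gm17353 (chr13:65998213-66011333, 13121 bp). Their RNA was near 0, with Zfp640 at 1, 1 and 2 in DEN_WT and 0 in each DEN_KO library, and Gm17353 at 0 in all 6. Next came Hand2 (chr8:59795709-59807765, 12057 bp), which encodes a helix-loop-helix factor of liver stellate cells, Mup11 (chr4:60671349-60682617, 11269 bp), 2410141K09Rik (chr13:66530674-66541167, 10494 bp) and the region shared by Mup1 and the transcript Gm13773 (chr4:60510588-60520472, 9885 bp). Of these, Hand2 alone overlapped a Smyd3 peak. The widest members that did overlap one were Hand2, the lincRNA Gm16908 (7522 bp), Pcdh17 (a protocadherin, 7149 bp), Pth1r (the parathyroid hormone receptor, 7015 bp) and Lrat (which esterifies retinol in stellate cells, 6834 bp). Gm16908 was at 2, 2 and 4 in DEN_WT and 2, 3 and 6 in DEN_KO, too low to test.

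Several of the 60 widest members stood at genes of liver cells other than hepatocytes. These were chosen after their values were seen: Clec4f (9071 bp), a Kupffer cell lectin, Bmp5 (8066 bp), a bone morphogenetic protein, Dcn (5248 bp), the matrix proteoglycan decorin, Cd5l (5172 bp), a macrophage secreted protein, Cd163 (4972 bp), a macrophage scavenger receptor, Ednrb (4754 bp), an endothelin receptor, Irf8 (4693 bp), a myeloid transcription factor, and Pdgfra (4571 bp), a growth factor receptor of fibroblasts. Among the marker lists, 8 of 22 measured macrophage genes and 6 of 16 stellate cell and fibroblast genes had a start at a knockout-only region, against 2.80% of all protein-coding genes (626 of 22369). None of either list stood at a wild-type-only region. The lists were chosen with earlier results of these data known, and these counts have no test. The other lists gave 1 of 20 endothelial genes (Tek), 2 of 19 B and plasma cell genes (Irf4 and Bank1), 1 of 14 cholangiocyte genes (Epcam), 1 of 9 erythroid genes (Alas2), and 0 of 31 T and NK cell, 0 of 16 neutrophil and mast cell and 0 of 10 hepatocyte genes. All 10 hepatocyte markers and all 31 hepatocyte identity genes stood at shared regions.

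Of the 810 genes, 626 were protein coding, 59 pseudogenes, 48 lincRNAs, 30 antisense transcripts and 14 miRNA genes. The start lay inside the region for 469 and outside it for 341. RNA reached a value of 10 or more in 3 or more of the 12 libraries, the filter for testing, for 549 genes (67.8%, exact 95% interval 64.4 to 71.0%, counting error only), leaving 261 untested. The share was 88.3% for genes at shared regions, 53.2% at wild-type-only regions and 18.3% for genes near no region. Levels of the genes that passed were low, with medians per library of 56 to 58 in WT and 61 to 66 in KO. The DEN_WT medians were 95, 54 and 73, and those of DEN_KO were 70, 74 and 73. The medians of genes at shared regions were 370 to 406 over the 12 libraries.

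The main RNA comparison set DEN_KO against DEN_WT, the condition from which the chromatin came, in limma on log2(value + 1) with a threshold of 0.05 on the adjusted p. Of the 549 tested member genes, 120 (21.9%) were higher in DEN_KO, 63 (11.5%) were lower and 366 were not past the threshold. Over all 16471 genes tested, 16.4% were higher and 17.4% were lower (33.9% called in either direction). The count either way, 33.3% of members, was thus close to that of all genes, with more members higher than lower. Genes near no H3K4me3 region had 20.8% higher and 11.1% lower, close to the members. Genes at shared regions had 14.7% and 19.6%, and genes at wild-type-only regions 7.97% and 35.5%. The median log2 fold change was 0.11 over members, -0.06 over all genes tested, 0.14 near no region, -0.10 at shared and -0.82 at wild-type-only regions. The members' median was -0.05 without DEN_WT replicate 2, and the counts were then 86 higher and 61 lower, beside 12.2% of all genes in each direction. Members with a Smyd3 peak numbered 41 higher and 16 lower of 196, and those without one 79 and 47 of 353, a difference that was not tested.

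**Figure D4:**
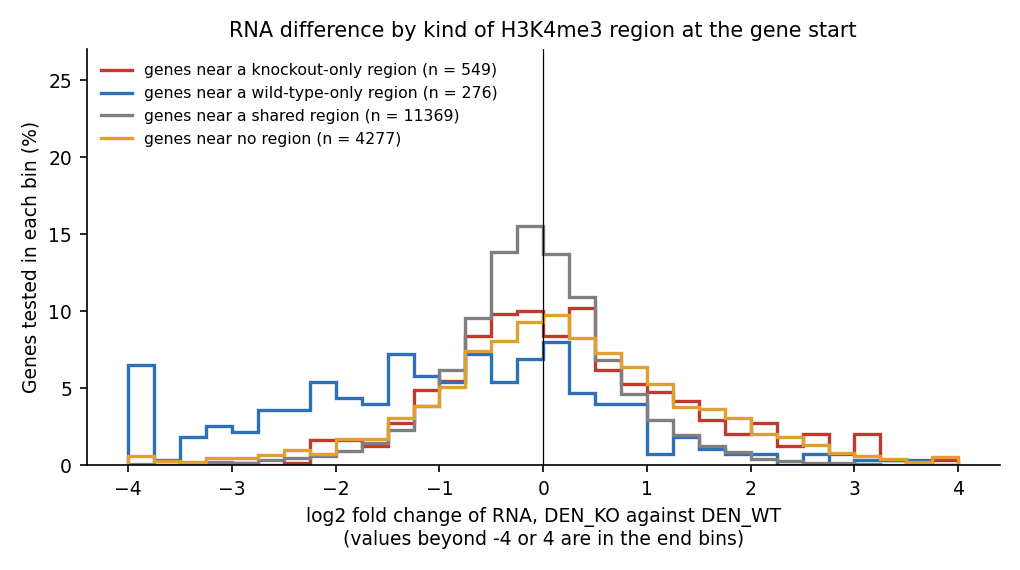
Log2 fold change of RNA in DEN_KO against DEN_WT (x axis) against the share of tested genes in each bin (%, y axis), by the kind of H3K4me3 region at the gene start. The curve of the 549 genes at knockout-only regions lies near that of the 4277 genes near no region, and that of the 276 genes at wild-type-only regions is shifted left, with a median of -0.82.

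The Mup genes, which encode urinary proteins that carry pheromones and are secreted by hepatocytes, were among the members higher in DEN_KO. Of 42 Mup genes and pseudogenes in the table, 14 were members, and 11 of those 14 were higher in DEN_KO, with a median of 2.72. Of the Mup genes that were not members, 26 of 27 tested were higher, with a median of 2.57. Summed over the 14, the value was 349796, 70211 and 263740 in DEN_WT and 659774, 969081 and 924007 in DEN_KO. DEN_WT and DEN_KO did not overlap, and DEN_WT replicate 2 was the lowest. Untreated livers gave 875513, 2570603 and 1714179 in WT and 1503253, 1046473 and 1616802 in KO. All DEN_KO sums were thus below the KO sums, and all DEN_WT sums below the WT sums. Outside the dense windows, which hold these genes, 107 of 529 member genes were higher, 63 were lower and the median was 0.06.

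Mup11 read 17694, 1676 and 15181 in DEN_WT and 58318, 103724 and 82122 in DEN_KO (log2 fold change 3.37 ± 0.70 SE, limma adjusted p = 0.0029). Mup-ps17, a pseudogene of the same cluster, read 557, 56 and 356 against 7092, 5965 and 9288, and had the largest increase of any member (5.03 ± 0.60, limma adjusted p = 0.00011). Mup15, Mup1 and Mup19, which with Mup11 had the highest mean values of all members, were higher by 2.52, 2.82 and 2.10 on the log2 scale (limma adjusted p = 0.012, 0.011 and 0.0072). Gm13773, which shares its region with Mup1, was higher by 3.12. In all of them the 3 DEN_KO libraries stood above the 3 DEN_WT libraries. Only upstream bases were compared between copies, and Mup1 and Mup-ps17 had no entry. With the handling of reads that map to several places not given, a single value may hold reads of other copies.

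Genes of lipid storage and fatty acid metabolism made up 3 members of the list of PPARA targets, the genes of a nuclear receptor for fatty acids, and all 3 were higher in DEN_KO. Fitm1, which forms lipid droplets at the endoplasmic reticulum (chr14:56194400-56195335, 936 bp, with a Smyd3 peak), read 224, 11 and 47 in DEN_WT and 1507, 1196 and 1066 in DEN_KO. The groups did not overlap, and the log2 fold change was 4.62 ± 0.86 SE (limma adjusted p = 0.0015). Acot1, which splits acyl-CoA in the cytosol (chr12:85350275-85351192, with a Smyd3 peak), read 124, 71 and 111 against 815, 2766 and 974, again without overlap (3.70 ± 0.45, limma adjusted p = 0.00012). Plin5, a coat protein of lipid droplets, read 593, 262 and 473 against 1073, 2254 and 912 (1.63 ± 0.36, limma adjusted p = 0.0038). In the whole list of 32 measured genes, 31 were tested, 21 were higher and 0 lower, with a median of 1.33. So most of the PPARA targets that moved were not members, and 20 of the 32 stood at shared regions.

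Drug metabolism gave 4 members, the cytochromes P450 Cyp1a2, Cyp2b10, Cyp2c37 and Cyp2c38, and all 4 were higher in DEN_KO. Cyp1a2, which oxidizes aromatic amines (chr9:57528646-57531497, 2852 bp, no Smyd3 peak), read 4795, 1149 and 4936 in DEN_WT and 24315, 12997 and 23221 in DEN_KO, without overlap (log2 fold change 2.69 ± 0.44 SE, limma adjusted p = 0.00071). Untreated livers read 20672, 18512 and 15224 (WT) and 32944, 30240 and 26593 (KO). Cyp2b10, the classic phenobarbital-induced enzyme (chr7:26682784-26683239, 456 bp), read 297, 27 and 60 against 757, 463 and 413 (2.72 ± 0.60, limma adjusted p = 0.0039). It stayed below the untreated KO livers (2764, 1925 and 3035), and DEN_KO against KO gave -2.26 (limma adjusted p = 0.023). Cyp2c37 read 1681, 796 and 3906 against 9492, 6049 and 7283 (2.11 ± 0.44, limma adjusted p = 0.0028). Cyp2c38 read 135, 78 and 185 against 930, 410 and 421, with the same log2 fold change (2.11 ± 0.58, limma adjusted p = 0.013). It lost the call without DEN_WT replicate 2 or DEN_KO replicate 1 (limma adjusted p = 0.060 and 0.059). Of the 32 genes in this list 21 were higher and 1 lower, with a median of 1.26, so these too moved with a larger group, 16 of which stood at shared and 11 near no region.

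Alas2, the erythroid form of the enzyme that starts haem synthesis (chrX:146981983-146984272, 2290 bp), read 1234, 575 and 1147 in DEN_WT and 4448, 3124 and 4927 in DEN_KO (log2 fold change 2.13 ± 0.25 SE, limma adjusted p = 0.00010). Untreated livers stood between, from 2603 to 2842. It was the only one of the 6 tested erythroid markers to pass the threshold, and the summed value of that list overlapped between groups (8818 to 24418 in DEN_WT and 16592 to 27218 in DEN_KO). Crygn, a crystallin of the lens, read 16, 12 and 12 against 141, 84 and 183 (3.20 ± 0.51, limma adjusted p = 0.00056). The antisense genes Gm16573, Gm14097 and Gm15723 were higher by 3.49, 3.25 and 3.17 on the log2 scale (limma adjusted p = 0.0033, 0.0074 and 0.016). Whether counting used strand is not given in the sources used here, so their reads cannot be told apart from those of the genes they overlap. Gm15723 was at 2, 0 and 2 in DEN_WT and 20, 8 and 34 in DEN_KO, and lost the call without DEN_WT replicate 2 or DEN_KO replicate 3 (limma adjusted p = 0.066 and 0.070).

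**Figure D5:**
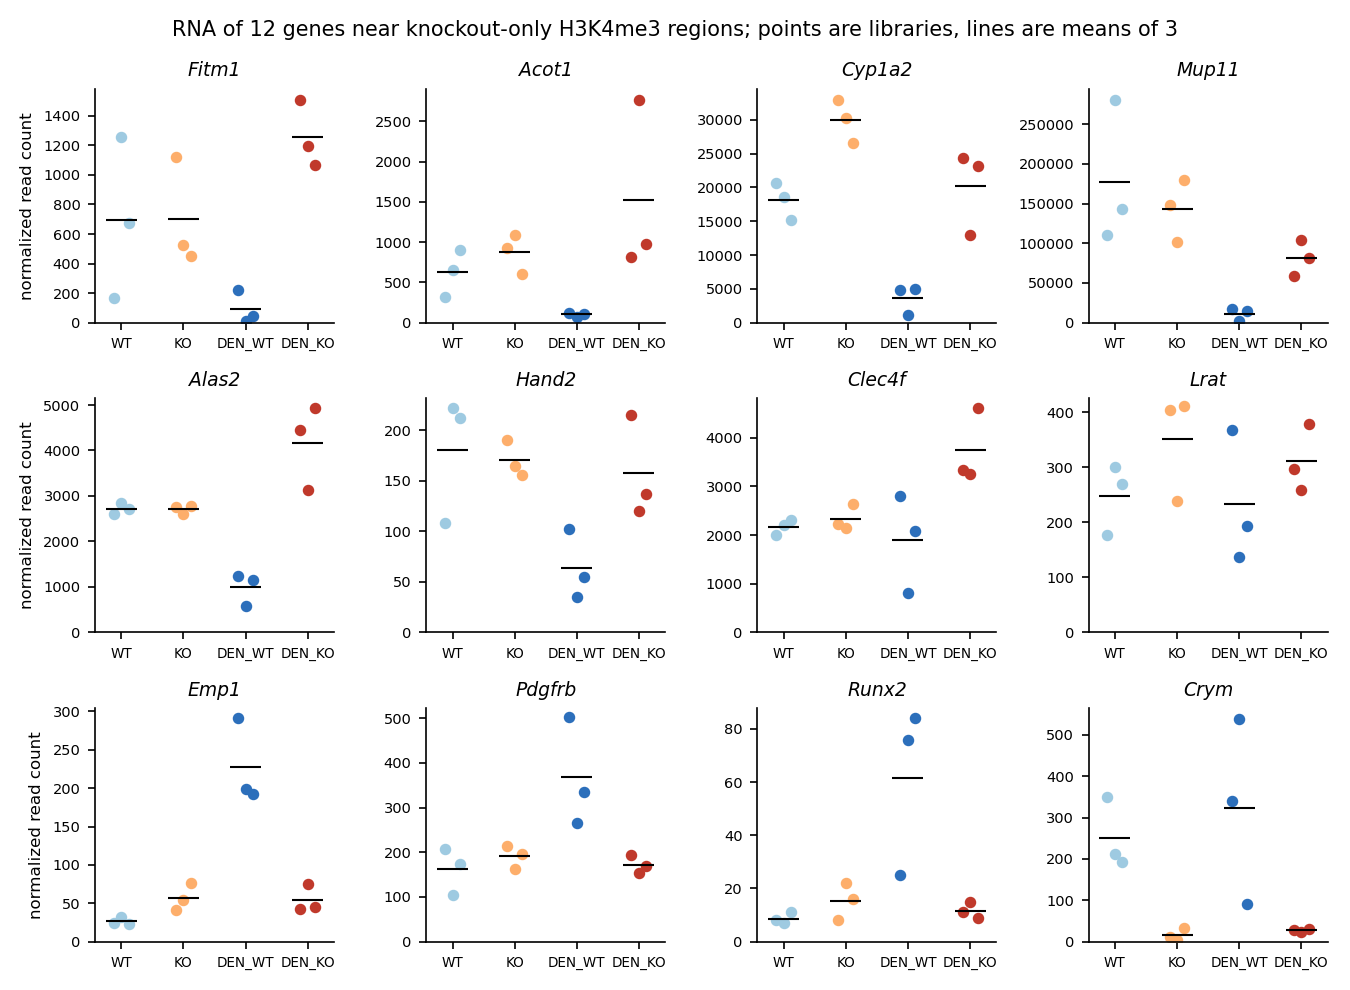
Normalized read count (y axis, linear from 0, own scale for each gene) of 12 genes near knockout-only regions in the 4 groups (x axis); points are libraries and lines are means of 3. From Fitm1 to Clec4f the DEN_KO points lie above the DEN_WT points, Lrat overlaps, and from Emp1 to Crym the DEN_KO points lie below.

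Kupffer cell genes at knockout-only regions were Clec4f, Cd5l, Cd163, C1qb, C1qc, Csf1r, Emr1 and Timd4. Clec4f (chr6:83597036-83606106) read 2797, 802 and 2076 in DEN_WT and 3344, 3266 and 4621 in DEN_KO, without overlap (log2 fold change 1.15 ± 0.34 SE, limma adjusted p = 0.018). It lost the call without DEN_KO replicate 3 (limma adjusted p = 0.077) and with these groups fitted alone (limma adjusted p = 0.063). The other 7 did not pass the threshold. Cd5l read 3660, 759 and 2299 against 3254, 2309 and 3928 (limma adjusted p = 0.18), and the complement component gene C1qc read 1289, 382 and 860 against 1234, 1252 and 2104 (limma adjusted p = 0.058). Csf1r, the receptor that keeps macrophages alive, read 1102, 405 and 856 against 919, 966 and 1324 (limma adjusted p = 0.20). DEN_WT replicate 2 was the lowest library in each of these, and the summed value of the 22 measured macrophage genes was 6310 there, 19205 and 13159 in the other DEN_WT libraries and 15667 to 20419 in DEN_KO. In that list 3 genes were higher and 5 lower, and none was at 0 in every library. The share of macrophages in the livers used for chromatin was not tested.

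Stellate cell and fibroblast genes at knockout-only regions were Hand2, Lrat, Dcn, Pdgfra, Pdgfrb and Ngfr, of which 1 was higher, 1 was lower and 4 did not pass the threshold. Hand2 read 102, 35 and 55 in DEN_WT and 215, 120 and 137 in DEN_KO, without overlap (log2 fold change 1.37 ± 0.38 SE, limma adjusted p = 0.013). The call was lost without DEN_WT replicate 2 (limma adjusted p = 0.062) or DEN_KO replicate 1 (limma adjusted p = 0.058). Pdgfrb, the growth factor receptor of pericytes and stellate cells, read 503, 266 and 335 against 193, 153 and 170 (-1.05 ± 0.28, limma adjusted p = 0.011). Lrat read 368, 137 and 193 against 297, 258 and 378 (0.52 ± 0.34, limma adjusted p = 0.25), and past the threshold without DEN_WT replicate 1 (limma adjusted p = 0.038). Dcn read 2138, 939 and 1471 against 2250, 1809 and 1913 (limma adjusted p = 0.17). Over the 16 genes of the list, 1 was higher and 6 lower, and its summed value was 7235 to 12381 in DEN_WT and 4985 to 6277 in DEN_KO. None of the 16 was at 0 in every library, and the part of cell number in these values was not tested. Of 35 measured genes on the list of mesenchymal transition, matrix and stellate cell genes, 7 (20.0%) were members, of which 2 were lower and 0 higher. Over the whole list 18 of 33 tested were lower and 0 higher, with a median of -1.35. Its member Col6a3, a collagen chain, read 509, 293 and 283 against 124, 156 and 146 (-1.29 ± 0.29, limma adjusted p = 0.0047).

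Among the 8 members with the largest decreases, Emp1, St14, Runx2 and Dnahc1 had risen with DEN in wild type. Emp1, an epithelial membrane protein (chr6:135313004-135314409), read 291, 199 and 193 in DEN_WT and 42, 75 and 45 in DEN_KO, beside 23 to 32 in WT (log2 fold change -2.08 ± 0.31 SE, limma adjusted p = 0.00043). St14, the membrane protease matriptase, read 116, 44 and 73 against 23, 17 and 9 (-2.16 ± 0.46, limma adjusted p = 0.0034). Runx2, a transcription factor of bone, read 25, 76 and 84 against 11, 15 and 9 (-2.16 ± 0.50, limma adjusted p = 0.0053). In each of these the groups did not overlap. Dnahc1, an axonemal dynein chain, read 85, 30 and 32 against 13, 5 and 5 (-2.48 ± 0.58, limma adjusted p = 0.0054). Fam70a, at -2.15, lost the call without DEN_WT replicate 1 or DEN_KO replicate 3 (limma adjusted p = 0.064 and 0.071). Depdc1a, also at -2.15, reached the minimum value of 10 in the 3 DEN_WT libraries alone (18, 43 and 13, against 2, 8 and 4 in DEN_KO), so it was tested only because it was high there, and its fold change is given as a description. Members that reached the minimum value in the libraries of 1 group only numbered 3, Depdc1a included, and stay among the 549 tested. Kif2c, a motor protein of mitotic chromosomes, was the only one of 30 mitosis genes at a knockout-only region. It read 41, 81 and 32 against 17, 17 and 5 (-1.96 ± 0.59, limma adjusted p = 0.022), and lost the call without DEN_WT replicate 2 (limma adjusted p = 0.10) or DEN_KO replicate 3 (limma adjusted p = 0.11). In that list 22 genes were lower and 25 stood at shared regions.

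Crym, which binds thyroid hormone in the cytosol, had the largest decrease (region chr7:127345009-127345395, 387 bp, with a Smyd3 peak, 230 bp from the start). It read 341, 538 and 91 in DEN_WT and 28, 23 and 31 in DEN_KO (log2 fold change -3.19 ± 0.66 SE, limma adjusted p = 0.0028). The untreated groups did not overlap either, with 349, 212 and 193 in WT and 12, 4 and 34 in KO (-4.21 ± 0.66, limma adjusted p = 0.0080). Its RNA was thus lower in knockout with or without DEN, beside a region listed only in knockout. Mir339 read 12, 25 and 11 against 0, 2 and 2 (-2.94 ± 0.63, limma adjusted p = 0.0034), a count of longer RNA over the miRNA gene and not of the mature miRNA.

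Of the 5 widest members with a Smyd3 peak, Hand2 and Pth1r were higher, Lrat and Pcdh17 did not pass the threshold and Gm16908 was not tested. Pth1r read 128, 58 and 72 in DEN_WT and 226, 157 and 184 in DEN_KO (1.19 ± 0.32, limma adjusted p = 0.012), a call lost without DEN_WT replicate 2 (limma adjusted p = 0.056). Pcdh17 read 146, 67 and 60 against 62, 64 and 29, with overlap (-0.77 ± 0.49, limma adjusted p = 0.24).

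Of 148 measured developmental transcription factors, 11 (7.43%) stood at knockout-only regions, beside 2.16% of all genes in the table and 2.80% of protein-coding genes, a description with no test. They were Lhx4, Gsc, Gata4, Hoxc9, Hoxc6, Pax8, Hoxa2, Hoxa13, Hand2, Tbx20 and Zic4. Of the same list, 4 stood at wild-type-only regions, 16 at shared regions and 117 near none. Smyd3 peaks overlapped 8 of the 11. RNA of 7 of the 11 was too low to test, with Hoxa13 at 0 in all 6 DEN libraries and Gsc at 0 to 2. Gata4, a liver factor, was at 478, 766 and 635 in DEN_WT and 363, 471 and 464 in DEN_KO (limma adjusted p = 0.062). In the list of 30 oncofetal genes and tumour markers, 1 stood at a knockout-only region (Epcam, an adhesion protein of bile ducts) and 7 at wild-type-only regions, among them Gpc3, Lin28b and Cd24a. Epcam read 36, 21 and 34 against 30, 23 and 25 (limma adjusted p = 0.77).

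Without DEN, few member genes differed. In KO against WT, 6 were higher and 5 lower of 549, beside 0.546% and 0.613% of all genes tested (1.16% either way). At an unadjusted p under 0.05 there were 87 of 549 members, beside 2492 of all 16471 genes. The number of calls rested on single libraries, being 3 without KO replicate 1 or KO replicate 2, 4 without WT replicate 2 and 20 without KO replicate 3. The share of all genes moved likewise, being 0.165% higher and 0.213% lower without KO replicate 1, 0.183% and 0.201% without KO replicate 2, 0.195% each way without WT replicate 2, and 1.59% and 1.80% without KO replicate 3. Named after their values were seen, Cyp17a1, an enzyme of steroid synthesis, read 27, 6 and 4 in WT and 391, 514 and 501 in KO (log2 fold change 5.55 ± 1.05 SE, limma adjusted p = 0.024). Tiam2, an activator of the GTPase Rac, read 17, 48 and 39 against 659, 384 and 270 (3.64 ± 0.60, limma adjusted p = 0.011). Sema3e, a guidance protein, read 3, 4 and 1 against 88, 52 and 50 in untreated livers (4.18 ± 0.86, limma adjusted p = 0.036). None of these 3 had overlapping groups. Without KO replicate 1, however, 0 members were called higher, so none of these 3 kept its call. Without KO replicate 2, 1 member was called higher. Crym, described above, was among the 5 lower members.

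With DEN in wild type, 191 of 549 member genes passed the threshold, 101 higher and 90 lower. Of all genes, 16.1% were higher and 13.5% lower (29.6% either way). With quantile normalization 73 members were higher and 111 lower, so which direction held more members depended on the scaling. All genes turned too, with 15.1% higher and 16.4% lower. Single libraries changed the split as well. Without DEN_WT replicate 1, 71 members were higher and 93 lower, while all genes had 13.8% higher and 11.6% lower. Without DEN_WT replicate 3 the members split 71 and 82 (12.7% and 10.5% of all genes). Without DEN_WT replicate 2 the members split 124 and 65 (13.6% and 9.84% of all genes). In knockout, 40 were higher and 15 lower, beside 8.91% and 6.02% of all genes (14.9% either way), and 33 and 27 with quantile normalization. The number of members called in knockout fell to 30 without KO replicate 1, 19 without DEN_KO replicate 2 and 27 without DEN_KO replicate 3. All genes fell as well, to 5.29% higher and 2.77% lower, 4.52% and 2.34%, and 5.25% and 2.81% in the same order. These comparisons share the DEN_WT or DEN_KO libraries with the main one, so their values are given side by side only. The difference of the DEN effects (knockout minus wild type, the interaction term) passed the threshold as positive for 53 members (9.65%) and negative for 25 (4.55%). The other 471 were not called, and the shares of all genes were 8.73% and 7.83% (16.6% either way). Without DEN_WT replicate 2 the members split 35 and 31, beside 6.37% and 5.27% of all genes. Without DEN_WT replicate 1 they split 71 and 20, beside 8.74% and 7.17%. The interaction was called for 42 members without DEN_KO replicate 3, when 5.77% and 4.95% of all genes were called. Cyp1a2, for example, changed by -2.58 with DEN in wild type and by -0.62 in knockout (interaction 1.96, limma adjusted p = 0.048). Emp1 changed by 3.05 and -0.09 (interaction -3.14, limma adjusted p = 0.0013).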

How the data were processed

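Per the labels' protocols, bead-isolated mRNA was sequenced on Ion Proton chips, and ChIP used an H3K4me3 antibody or a Smyd3 antiserum. The submitters' processing notes name DESeq, Bowtie2, Cufflinks, cutadapt and TopHat2 2.0.9 and build mm9, without their roles. The peak caller is not given in the sources used here. RNA polymerase II and input libraries were not analysed here. The RNA values are a score as deposited by the authors: for each gene in each library, a normalized count rounded to whole numbers. The deposited region lists give start, end and a score of 0, with 1 list for the 2 replicates of a group. Columns outside the series numbered 0.

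The members and gene lists were chosen with earlier results of these data known. Regions were compared by overlap in Python 3.11.15. Values summed to 22320634 to 28973396 per library, within-group r was 0.956 to 0.978, and the chi-square per degree of freedom between replicates was 32.1 or more. The labels name a mouse per library. Since no raw counts are used, limma 3.58.1 under R 4.3.3 fitted log2(value + 1) in all 4 groups with a trend, 8 residual degrees of freedom and Benjamini-Hochberg adjustment over 16471 of 37583 genes. The fit was tested on simulated data. Named genes are the 8 largest changes each way past the threshold, genes at the 6 widest regions with a start and the 5 widest with a Smyd3 peak, the 4 highest means, listed genes past the threshold, and Smyd3. With 3 libraries a group, the smallest two-sided exact permutation p is 0.10. Alternatives covered the pseudocount, filter, scaling, single libraries, replicate block, gene window, overlap rule, region width and dense windows, the last chosen after seeing the data. The values of 1 member gene are not reported here.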

Additional observations from a re-analysis of the deposited data

Results flagged for a closer look

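In limma's interaction term, the effect of DEN on RNA differed between knockout and wild type for 16 of the 35 tested named genes. Most named genes were chosen by their change in DEN_KO against DEN_WT, and the interaction holds that same difference. The number of these genes and their signs therefore follow in part from the choice. Over all genes tested the interaction was called for 16.6%, and over member genes for 14.2%. Values are log2 differences of the DEN effect, knockout minus wild type, with limma adjusted p.

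Positive differences belonged to genes that fell with DEN in wild type. By limma they were 5.01 for the pseudogene Mup-ps17 (adjusted p = 0.0029), 4.31 for Fitm1 (adjusted p = 0.029), 3.67 for Gm13773 (adjusted p = 0.0032), 3.60 for Mup11 (adjusted p = 0.026), 3.12 for Acot1 (adjusted p = 0.0070), 2.44 for Crygn (adjusted p = 0.034), 2.42 for Cyp2c37 (adjusted p = 0.019), 2.13 for Alas2 (adjusted p = 0.0027) and 1.96 for Cyp1a2 (adjusted p = 0.048).

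Negative differences belonged to genes that rose with DEN in wild type. By limma they were -3.14 for Emp1 (adjusted p = 0.0013), -2.83 for Runx2 (adjusted p = 0.017), -2.79 for Pcdh17 (adjusted p = 0.017), -2.78 for Kif2c (adjusted p = 0.039), -2.68 for St14 (adjusted p = 0.016), -2.58 for Dnahc1 (adjusted p = 0.046) and -1.33 for Pdgfrb (adjusted p = 0.034). Pcdh17 did not pass the threshold in DEN_KO against DEN_WT, where it gave -0.77.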

How the results depend on the processing

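Of 654 values of the 35 tested named genes under alternatives, 638 kept their direction and side of the threshold, 15 in 8 genes lost the call, 1 gained it and 0 reversed. A further 11 could not be computed because the gene was no longer tested: 8 genes at a minimum value of 50, and Depdc1a without each DEN_WT library. Leaving out single libraries gave 128 to 191 members called in DEN_KO against DEN_WT, 3 to 20 in KO against WT, 150 to 207 in DEN_WT against WT, 19 to 68 in DEN_KO against KO, 42 to 91 for the interaction, and medians from -0.05 to 0.24. In DEN_KO against DEN_WT the shares of all genes fell to 11.9% higher and 12.3% lower without DEN_KO replicate 3. With all libraries they were 16.4% and 17.4%. The shares did not follow the members in every fit. Without DEN_WT replicate 1 the interaction was called for 91 members, beside 8.74% and 7.17% of all genes. With all libraries it was called for 78, beside 8.73% and 7.83%. Without DEN_WT replicate 2, DEN_WT against WT kept 189 members (191 with all libraries), beside 13.6% and 9.84% of all genes (16.1% and 13.5%). With only starts inside a region, members called numbered 98, 4, 110, 32 and 47 in the comparisons as first listed here, of 318 tested in place of 549. The shares of all genes called were 33.9%, 1.16%, 29.6%, 14.9% and 16.6% in the same order, here and in the next 2 settings. Within 5000 bp of a region, DEN_KO against KO gave 108 and the interaction 130, of 823 tested. Members wider than the median gave 35 in DEN_KO against KO, of 461 tested. These counts change with the number of genes tested.

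The number of knockout-only regions was 3743 at 5000 bp or more from a wild-type region, 5162 when overlaps below 50% counted as members, 1480 without regions narrower than 874 bp and 3923 without the dense windows. Overlaps below 50% put the share at gene starts at 26.7%, with a Smyd3 peak at 24.3% and past the RNA filter at 76.9%. Without the narrow regions the shares were 31.9%, 25.3% and 75.9%. The share at starts was 10.4% with a window of 0 bp and 27.1% with 5000 bp. A Smyd3 peak within 1000 bp gave 20.9%, and at least 50% of the peak inside the region 13.3%. A minimum value of 50 left 45.8% of member genes. Beyond the changed definitions, the cause was not tested.

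Same-numbered libraries correlated by -0.10 to 0.12 (1 of 18 pairs over 0.1), and 3 of 12 libraries correlated best with their own number. A pairing by number was thus not seen in these values, and whether same-numbered mice were handled together was not tested. A replicate block gave 177 members called in DEN_KO against DEN_WT, 9 in KO against WT and 170 in DEN_WT against WT. It gave 51 in DEN_KO against KO, 73 for the interaction and a median of 0.11. The shares of all genes fell as well. In the same order they were 15.7% higher and 16.4% lower, 0.437% and 0.486%, 15.3% and 12.6%, and 8.12% and 5.12%. Without the block they were 16.4% and 17.4%, 0.546% and 0.613%, 16.1% and 13.5%, and 8.91% and 6.02%. For the interaction, both shares were also below the 8.73% and 7.83% found without the block. Depth is not given by rounded, scaled values, and the region lists hold no replicate spread.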
